A study of Homo sapiens with 6 samples.

Results

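The 29 genes described here encode enzymes of cholesterol synthesis and of fatty acid synthesis, together with the proteins that sense and move sterols. They were chosen by symbol, and all 29 were found among the 35268 named genes of the table. Of these, 22 are sterol genes (6 of the mevalonate branch, 11 that carry squalene to cholesterol and 5 of sterol sensing and transport) and 7 are fatty acid genes. The cells were Rh30, an established line of fusion-positive rhabdomyosarcoma (FP-RMS), a muscle-lineage sarcoma driven by the PAX3-FOXO1 oncofusion. One group was exposed for 24 hours to the study drug at 1 µM, dissolved in DMSO, and the control group to the DMSO vehicle for the same time, with 3 RNAseq libraries in each group. As this drug, YK-4-279's role in the study was that of a small molecule acting on ETS factors, used against the binding of ETS1 to PAX3-FOXO1. The comparison asks which transcripts differ after drug treatment. A single cell line was profiled, and in bulk RNA fewer cells of a kind and less RNA per cell cannot be told apart. Nothing in the labels says that the 3 samples of a group were grown apart, so p-values measure only the spread between these samples.

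Cholesterol is built from acetyl-CoA through mevalonate, farnesyl diphosphate, squalene and lanosterol, and fatty acids are built from the same acetyl-CoA by carboxylation and elongation. Both routes are transcribed under SREBP factors, which SCAP escorts out of the endoplasmic reticulum when membrane sterol is low and which INSIG proteins hold back when sterol is high. A change in cell sterol therefore usually moves many of these transcripts together, and dividing cells need both routes to make membrane.

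Values are normalized counts, that is reads per gene divided by a factor of each library, and the libraries held from 16724650 to 24677433 reads on named genes. The 29 genes together took 0.393%, 0.413% and 0.417% of the reads in DMSO replicates 1, 2 and 3, compared with 0.433%, 0.42% and 0.414% in drug-treated replicates 1, 2 and 3. All 6 markers of rhabdomyosarcoma were high in every library, with a summed level from 89455 to 104538 normalized counts with DMSO and from 95791 to 100599 with the drug. MYOD1, FGFR4, CDH15 and CHRNA1 had fitted log2 changes of -0.01, -0.12, -0.03 and -0.02, and none of the 6 was called. MYOG and DES were higher in each drug-treated library, at 0.23 and 0.14 (limma adjusted p = 0.224 and 0.255), and both were at 0.08 without DMSO replicate 1. In that fit FGFR4 and CDH15 were called lower, at -0.17 and -0.14 (limma adjusted p = 0.00285 and 0.0106). Markers of fat cells and of liver were at or near 0: the summed level of 4 adipocyte markers went from 5.01 to 11.99 per library, and that of 4 hepatocyte markers from 0 to 10.0. Among 5 fibroblast markers DCN was at or near 0, and the summed level went from 973 to 1065 with DMSO and from 1220 to 1306 with the drug. Most of that sum was COL1A1, which rose by 0.34 on the log2 scale (limma adjusted p = 0.0375). PDGFRA, the next most abundant, had 365 ± 71.4 normalized counts in DMSO cells and 435 ± 23.1 in drug-treated ones (SD, n = 3 per group), with overlap and a fitted change of 0.27 (limma adjusted p = 0.25). It was called higher without DMSO replicate 1, at 0.42 (limma adjusted p = 0.000279), as was COL1A1, at 0.28 (adjusted p = 0.00161). The part of these markers in the values of the sterol and fatty acid genes was not tested. One library, DMSO replicate 1, was less like the rest: its correlation with them across genes averaged 0.989, while no other library averaged below 0.992. Values without it are given for the members and markers whose call they change.

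Before any comparison, the levels of the genes were set beside each other per length, as normalized counts per kb of the canonical transcript. SCD, the desaturase that makes oleate and palmitoleate, had the highest level, at 3215 ± 113 per kb with DMSO (SD, n = 3). FASN, the fatty acid synthase, followed at 2939 ± 194 per kb, and these neighbours in the order differed by less than the sum of their SDs. ACLY, which makes cytosolic acetyl-CoA from citrate, had 1614 ± 56.5 per kb. Next came SREBF2, which encodes the SREBP that mainly drives sterol genes, at 1334 ± 20.6 per kb, and FDFT1, the squalene synthase, at 1249 ± 17.5 per kb. SREBF1, whose products mainly drive fatty acid genes, had 392 ± 30.2 per kb, below SREBF2. Thus 3 of the 7 fatty acid genes led the order, while FADS2, the delta-6 desaturase, stood near its foot at 86.0 ± 2.34 per kb.

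**Figure D1:**
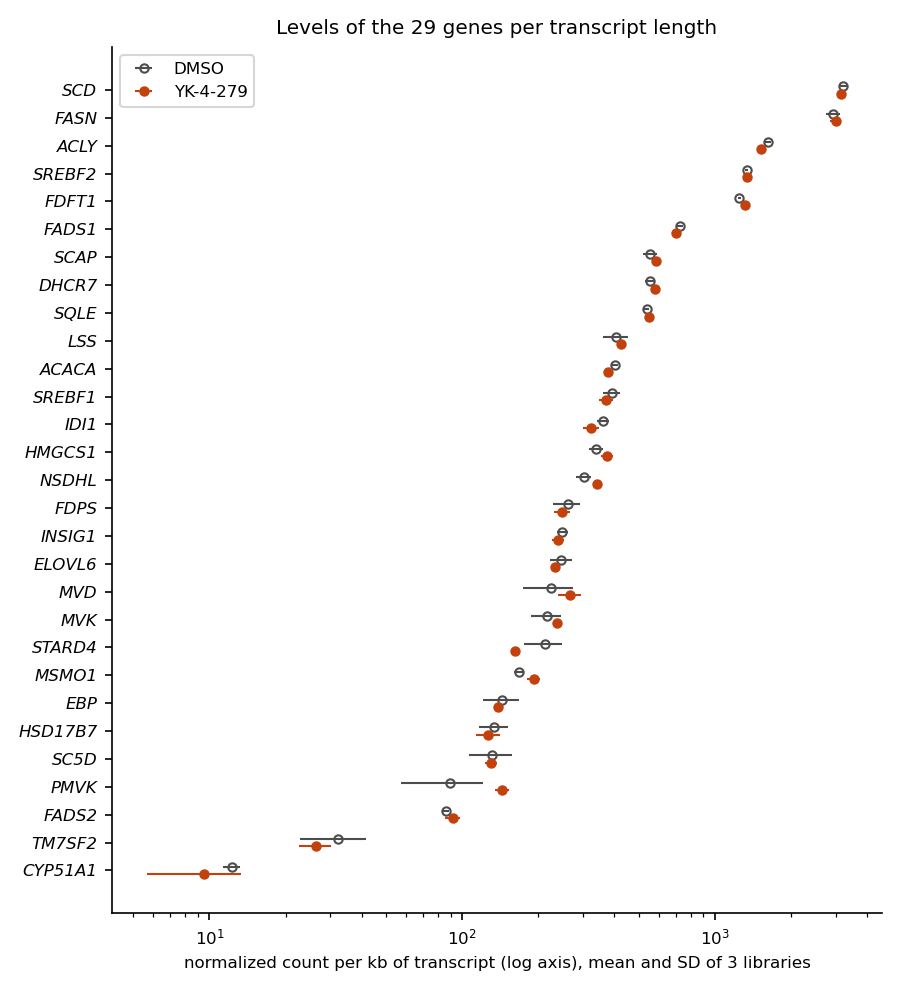
Normalized counts per kb of canonical transcript on a log axis for the 29 genes in Rh30 cells, ordered by the DMSO mean; open grey points are DMSO, filled orange points are drug-treated, and bars are the SD of 3 libraries. SCD (3215 per kb with DMSO) and FASN (2939 per kb) lead, and TM7SF2 (32.2 per kb) and CYP51A1 (12.3 per kb) come last.

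The lowest levels belonged to genes of the lanosterol steps. TM7SF2, a sterol C14 reductase, had 32.2 ± 9.33 per kb with DMSO, and CYP51A1, the lanosterol demethylase, had 12.3 ± 0.965 per kb. The value of CYP51A1 is uncertain, since in GENCODE 44 68.2% of its exonic bases lie under exons of other genes on the same strand, and 3 pseudogenes carry its name. EBP, the sterol isomerase, has such an overlap over 36.4% of its exonic bases. FDPS has 8 named pseudogenes, IDI1 has 3, HSD17B7 has 2 and SCD has 1, so the levels of these genes are uncertain where reads are shared. On the opposite strand, exons of another gene cover 37.7% of the exonic bases of HMGCS1 and 18.6% of those of FDPS, and whether the counts used strand is not given in the sources used here.

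None of the 29 genes was called at an adjusted p-value under 0.05 in limma (Benjamini-Hochberg over all 13930 genes tested), where 3.41% of all genes tested were called, 1.26% higher and 2.15% lower. By sign alone, 14 members lay above 0 and 15 below, and 52% of all genes lay below. At an unadjusted p-value under 0.05 there were 4 members, 3 higher (PMVK, MSMO1 and NSDHL) and 1 lower (STARD4), which is 13.8% of the list against 18.7% of all genes tested (7.69% higher and 11% lower). On the recovered reads edgeR called 0 members, with 3.35% of all genes called. DESeq2 called 2, PMVK and STARD4, with 4.56% of all genes called, and gave no adjusted p-value for CYP51A1. The median log2 fold change over all genes tested was -0.01. That of the 22 sterol genes was 0.02, and it turned to -0.0104 when trends on GC content and length were removed. In that fit the median over all genes tested was -0.0284, below that of the sterol genes. The median of the 7 fatty acid genes was -0.05, and it turned to 0.0077 with quantile normalization, beside -0.0015 over all genes tested. For 24 of the 29 the 95% interval of the fitted change lay between -0.5 and 0.5 on the log2 scale, and for 15 it lay between -0.25 and 0.25.

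The count of 0 members was the same under the next 8 settings of limma, against different backgrounds. The share of all genes called was 3.52% and 3.4% with pseudocounts of 10 and 0.5, 2.04% with no filter on the mean and 4.36% with a mean of at least 100. It was 3.02% with TMM scaling, 1.99% with quantile normalization, 0.237% without the variance trend and 1.29% with a replicate block. With 1 library left out, 0 members were called without DMSO replicate 3 (1.74% of all genes) and without drug-treated replicate 1, 2 or 3 (0.136%, 0.165% and 0.33%). Without DMSO replicate 2 there were 2 members called, PMVK and STARD4, beside 4.85% of all genes. Without DMSO replicate 1 there were 3, with HMGCS1 and PMVK higher (4.62% of all genes were called higher) and STARD4 lower (8.46%).

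**Figure D2:**
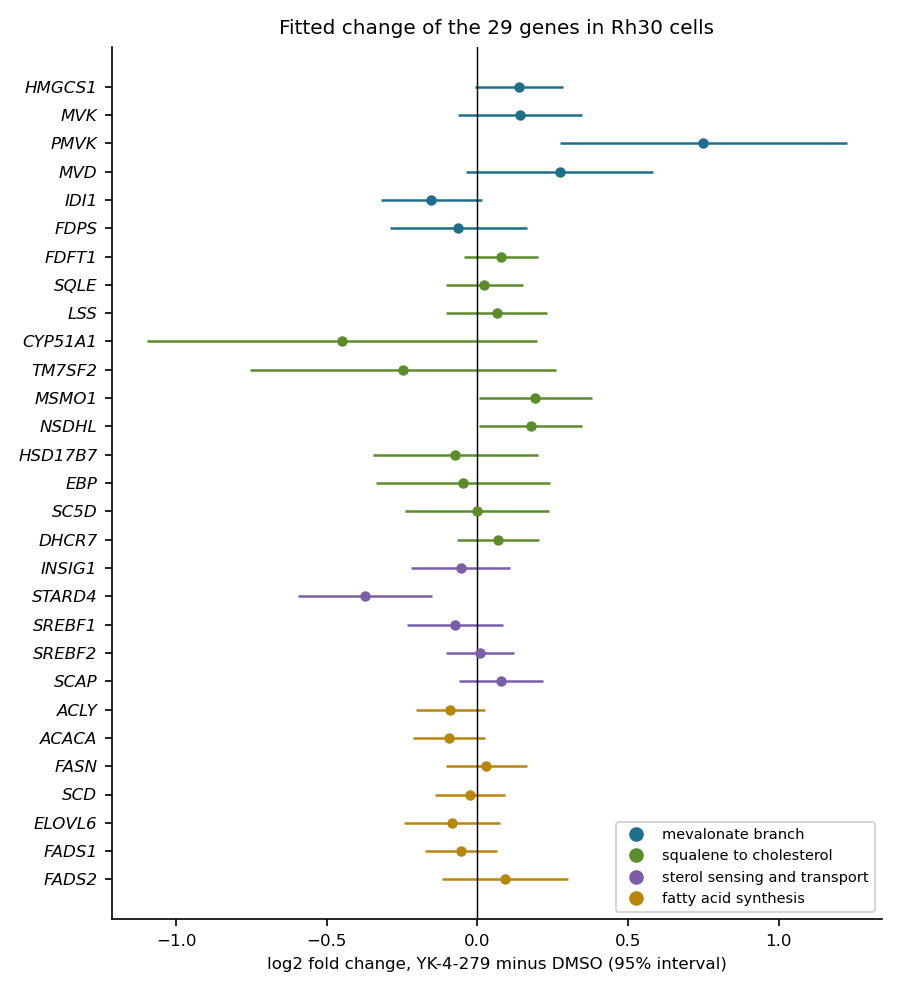
Fitted log2 fold change, drug minus DMSO, of the 29 genes with 95% intervals from limma, coloured by role. Only the intervals of PMVK (0.27 to 1.23), MSMO1, NSDHL and STARD4 (-0.60 to -0.15) leave out 0, and none of the 29 was called.

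The groups did not overlap for 7 members. PMVK, FDFT1, MSMO1 and NSDHL were higher in each drug-treated library than in each DMSO library, which is 13.8% of the list beside 10.9% of all genes tested. STARD4, ACLY and ACACA were lower in each drug-treated library, which is 10.3% of the list beside 15.1% of all genes. The plot of each library against the DMSO mean shows how small most of these gaps are.

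**Figure D3:**
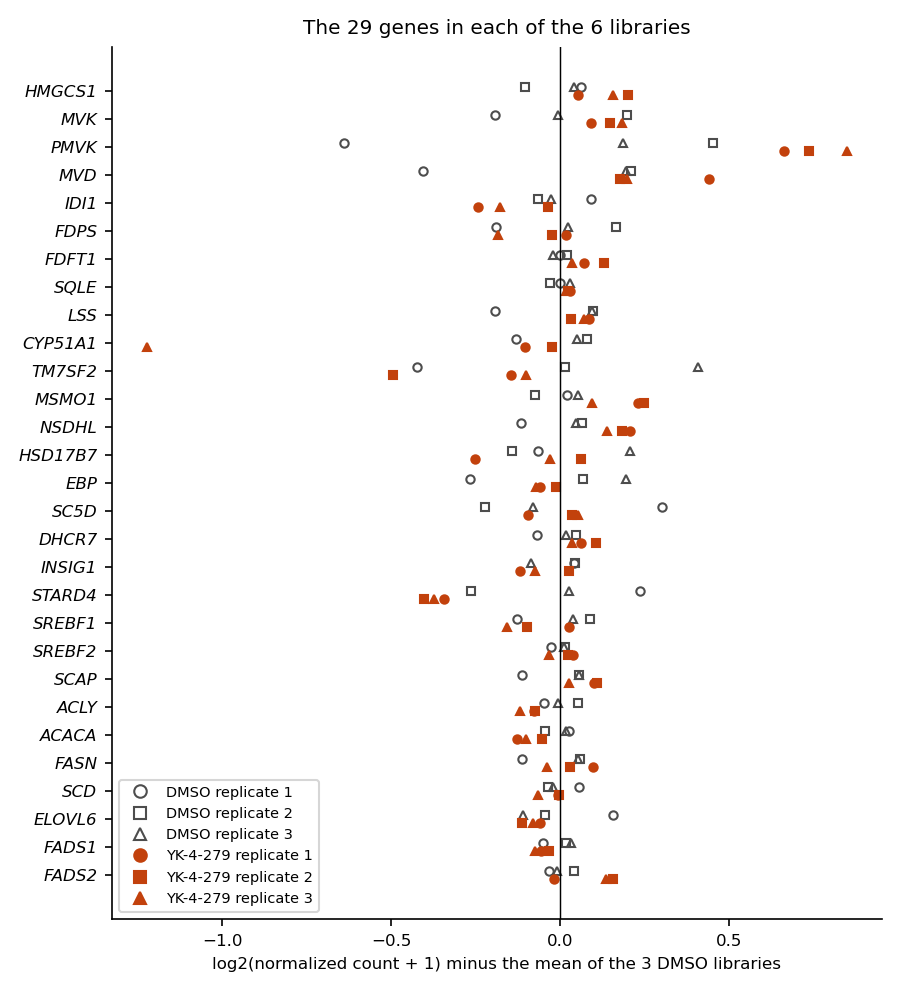
Each of the 6 libraries as its log2(normalized count + 1) minus the mean of the 3 DMSO libraries, for the 29 genes; open grey symbols are DMSO, filled orange symbols are drug-treated, and the shape gives the replicate. PMVK spreads most widely among the DMSO libraries, and CYP51A1 has 1 low drug-treated library.

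In the mevalonate branch, 4 of 6 genes lay above 0 and 2 below, with a median log2 fold change of 0.14, which was 0.06 without DMSO replicate 1. PMVK, the phosphomevalonate kinase (ENSG00000163344.6, hg38 chromosome 1 from 154924740 to 154936719, minus strand), had the largest fitted change of all members. DMSO replicates 1, 2 and 3 held 54.2, 117 and 96.9 normalized counts of it, and drug-treated replicates 1, 2 and 3 held 135, 142 and 154. All 3 drug-treated libraries lay above all 3 DMSO libraries, and DMSO replicate 1 was far below the other DMSO libraries. On the log2 scale the difference was 0.75 (standard error 0.22, limma adjusted p = 0.0828), from means of 89.3 ± 32.02 and 144 ± 9.45 (SD, n = 3 each). The change was smaller without DMSO replicate 1, at 0.43, and it passed the threshold (limma adjusted p = 0.0389), as it did without DMSO replicate 2, at 0.98 (adjusted p = 0.0142). PMVK had as few as 43 reads in a library.

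HMGCS1, the cytosolic HMG-CoA synthase that opens the branch, had 1894, 1687 and 1868 normalized counts in DMSO replicates 1, 2 and 3. In drug-treated replicates 1, 2 and 3 it had 1882, 2087 and 2024. The lowest drug-treated library lay below the highest DMSO library, and the log2 fold change was 0.14 (standard error 0.07, limma adjusted p = 0.299). It was 0.17 without DMSO replicate 1 and passed the threshold (limma adjusted p = 0.0167), when 13.1% of all genes were called. It was 0.09 without DMSO replicate 2 (limma adjusted p = 0.521). MVD, the mevalonate diphosphate decarboxylase, had a fitted change of 0.27 (limma adjusted p = 0.329), but its DMSO libraries went from 298 to 457 normalized counts and its drug-treated libraries from 447 to 536. The low end was again DMSO replicate 1, and without it the change of MVD was 0.07. MVK, the mevalonate kinase, followed the same course, from 0.14 to 0.05 without that library. IDI1, the isopentenyl diphosphate isomerase, lay lower, at 987 ± 56.3 in DMSO cells against 889 ± 66.1 in drug-treated cells (SD, n = 3 per group), a change of -0.15 (limma adjusted p = 0.31). FDPS, the farnesyl diphosphate synthase, was at -0.06 (limma adjusted p = 0.794).

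From squalene to cholesterol, 6 of 11 genes lay above 0 and 5 below, with a median of 0.02. MSMO1, the sterol C4 methyl oxidase, and NSDHL, the decarboxylating dehydrogenase that works beside it in C4 demethylation, had the highest changes of this group. MSMO1 had 378, 354 and 387 normalized counts in DMSO replicates 1, 2 and 3, compared with 438, 443 and 398 in drug-treated replicates 1, 2 and 3. The groups did not overlap, and the gap between the nearest libraries was narrow. Its log2 fold change was 0.19 (standard error 0.09, limma adjusted p = 0.259). NSDHL had 513, 582 and 574 normalized counts with DMSO and 641, 631 and 612 with the drug, in the order of the replicates. Its log2 fold change was 0.18 (standard error 0.08, limma adjusted p = 0.255). HSD17B7, the ketoreductase of the same demethylation, did not share this position, with a change of -0.07 (limma adjusted p = 0.8).

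FDFT1 was measured closely, at 2541 ± 35.7 normalized counts in DMSO cells against 2685 ± 90.1 in drug-treated cells (SD, n = 3 per group). Its groups did not overlap, and its change was only 0.08 (95% interval -0.04 to 0.20, limma adjusted p = 0.488). SQLE, the squalene epoxidase and a rate-limiting step of the route, lay at 1592 ± 33.5 and 1617 ± 7.43 normalized counts, a change of 0.02 with a 95% interval from -0.11 to 0.15. LSS, the lanosterol synthase, and DHCR7, the last reductase of the route, were at 0.06 and 0.07 (limma adjusted p = 0.7 and 0.604), and at -0.03 and 0.03 without DMSO replicate 1. SC5D, the sterol desaturase, had a fitted change of 0.00 (-0.00102 before rounding), though DMSO replicate 1 stood at 1100 normalized counts against 764 and 842 in the other DMSO libraries. CYP51A1 had the lowest change, at -0.45 (95% interval -1.10 to 0.20, limma adjusted p = 0.446), and this rested on drug-treated replicate 3, with 16.0 normalized counts against 35.3 to 41.0 in the other 5 libraries. Without drug-treated replicate 3 it was -0.06. TM7SF2 was at -0.25 (95% interval -0.75 to 0.26), and its value moved with single libraries, to -0.46 without DMSO replicate 1 and to -0.04 without DMSO replicate 3. EBP was at -0.05 (95% interval -0.34 to 0.24).

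Among the genes of sterol sensing and transport, 2 lay above 0 and 3 below, with a median of -0.06, which was -0.03 without DMSO replicate 1. STARD4, a soluble carrier that moves cholesterol between membranes (ENSG00000164211.13, hg38 chromosome 5 from 111496033 to 111512590, minus strand), was the member with the smallest adjusted p-value. It had 1146, 809 and 991 normalized counts in DMSO replicates 1, 2 and 3, compared with 766, 736 and 751 in drug-treated replicates 1, 2 and 3. The drug-treated libraries lay close together and below all DMSO libraries, which were spread widely with DMSO replicate 1 at the top. The means were 982 ± 169 in DMSO cells against 751 ± 15.2 in drug-treated cells (SD, n = 3 per group), and the log2 fold change was -0.37 (standard error 0.10, limma adjusted p = 0.0672). STARD4 passed the threshold without DMSO replicate 1, at -0.25 (limma adjusted p = 0.0055), and without DMSO replicate 2, at -0.505 (adjusted p = 0.00463).

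Among the regulators of the pathway, SREBF2 had the smallest standard error of the 29 members (0.05). It had 6986 ± 108 normalized counts in DMSO cells against 7034 ± 184 in drug-treated cells (SD, n = 3 per group), a log2 fold change of 0.01 with a 95% interval from -0.10 to 0.12. SCAP, the escort of the SREBP factors, was at 0.08 (95% interval -0.06 to 0.22), and at 0.02 without DMSO replicate 1. INSIG1, the sterol-responsive retention protein and itself an SREBP target, was at -0.06 (95% interval -0.22 to 0.11), with 724 ± 37.2 and 697 ± 36.0 normalized counts, and went from -0.099 to -0.024 across the fits without 1 library. SREBF1 had 1921 ± 148 and 1822 ± 120 normalized counts, a change of -0.08 (95% interval -0.23 to 0.08). SREBF1 was at -0.14 without DMSO replicate 1 (limma adjusted p = 0.0549), and at -0.16 and called lower with trends on GC content and length removed (adjusted p = 0.0266). It was nearer 0 in other fits, at -0.03 without DMSO replicate 2, without drug-treated replicate 3 and with quantile normalization (limma adjusted p = 0.858, 0.895 and 0.878).

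**Figure D4:**
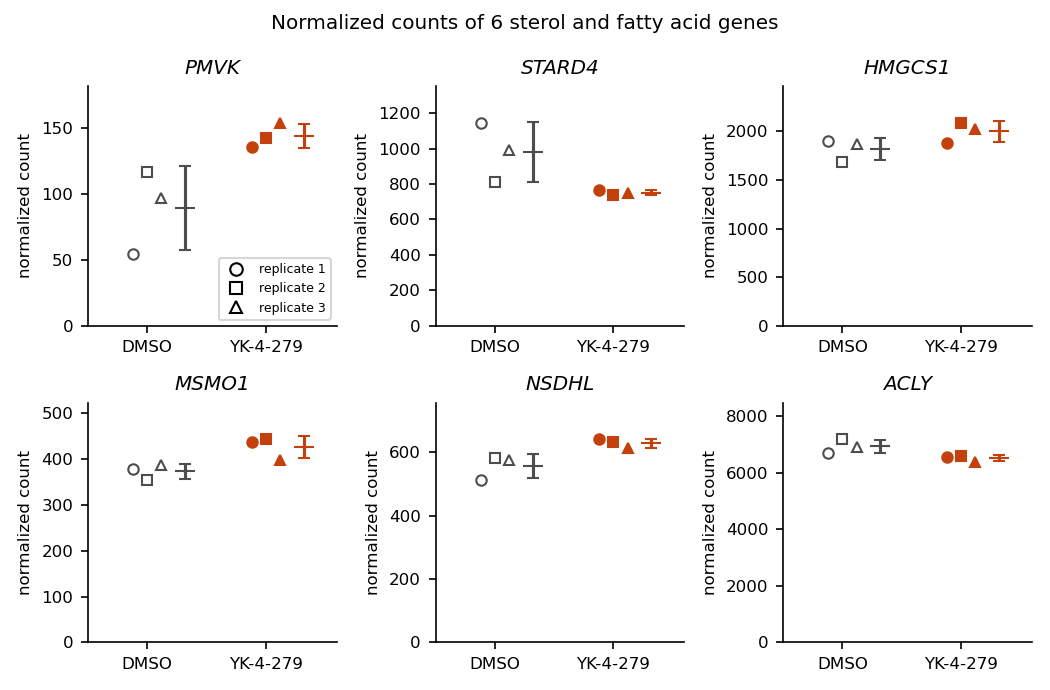
Normalized counts of PMVK, STARD4, HMGCS1, MSMO1, NSDHL and ACLY in each library, with the mean and SD of 3 libraries beside the points; every axis starts at 0 and the shape gives the replicate. PMVK, MSMO1 and NSDHL are higher and STARD4 and ACLY lower in each drug-treated library, while HMGCS1 overlaps, and DMSO replicate 1 is lowest for PMVK and highest for STARD4.

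Of the 7 fatty acid genes, 2 lay above 0 and 5 below, and no change was past 0.10 in either direction on the log2 scale. ACLY had 6709, 7190 and 6893 normalized counts in DMSO replicates 1, 2 and 3, compared with 6572, 6580 and 6385 in drug-treated replicates 1, 2 and 3. No drug-treated library reached the level of any DMSO library, and the log2 fold change was -0.09 (standard error 0.05, limma adjusted p = 0.398). ACACA, the acetyl-CoA carboxylase that commits carbon to fatty acids, had the same pattern, with 4043 ± 107 and 3788 ± 97.3 normalized counts (SD, n = 3 each) and a change of -0.09 (limma adjusted p = 0.386). FASN, the highest member in normalized counts, was at 24875 ± 1646 and 25376 ± 1196, a change of 0.03 with a 95% interval from -0.11 to 0.16. SCD lay at 16864 ± 595 and 16572 ± 411, a change of -0.03 with a 95% interval from -0.14 to 0.09. ELOVL6, which elongates palmitate, and FADS1, the delta-5 desaturase, were at -0.08 and -0.05 (limma adjusted p = 0.58 and 0.645), and ELOVL6 was at -0.006 without DMSO replicate 1. FADS2 was the highest of the group, at 0.09 (limma adjusted p = 0.649).

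The position of DMSO replicate 1 followed the base composition of the transcripts. Across the 29 genes, its log2 difference from the mean of DMSO replicates 2 and 3 had a Pearson r of -0.718 and a Spearman rho of -0.784 with GC content (across genes of the same 3 libraries, which are not independent replicates), and over 13705 genes tested r was -0.51. Between DMSO replicates 2 and 3 the same r was 0.316 over the 29 genes and 0.1 over all. The GC-rich MVD (65.5%) and PMVK (59%) were 0.61 and 0.96 lower in DMSO replicate 1 on the log2 scale, while the GC-poor STARD4 (34.4%) and SC5D (36.9%) were 0.36 and 0.45 higher. Members of like GC content could shift far less, as FASN (65.3%) at -0.17 and FADS2 (59%) at -0.05. When DMSO replicate 1 was left out, the fitted change of MVD went from 0.27 to 0.07 and that of PMVK from 0.75 to 0.43. That of STARD4 went from -0.37 to -0.25 and that of SC5D from -0.00102 to 0.15.

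**Figure D5:**
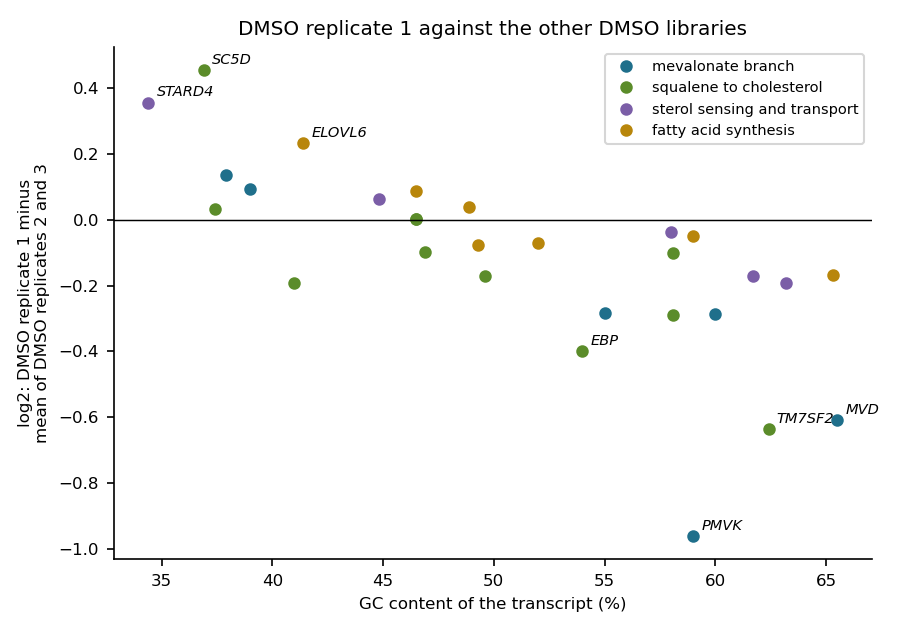
GC content of the canonical transcript (percent) against the log2 difference between DMSO replicate 1 and the mean of DMSO replicates 2 and 3, with 1 point for each of the 29 genes, coloured by role. GC-poor genes such as STARD4 (0.36) and SC5D (0.45) lie above 0 and GC-rich genes such as MVD (-0.61) and PMVK (-0.96) below.

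After a smooth trend on GC and transcript length had been taken out of every library, 7 members passed an adjusted p-value of 0.05, beside 14.3% of all genes tested. HMGCS1, PMVK and MSMO1 rose in that fit by 0.20, 0.65 and 0.26 on the log2 scale (limma adjusted p = 0.00983, 0.0195 and 0.0419). STARD4, SREBF1, ACACA and ACLY were called lower, at -0.27, -0.16, -0.14 and -0.13 (limma adjusted p = 0.013, 0.0266, 0.0261 and 0.0263). When DMSO replicate 1 was also left out, 7 members were called, with FADS1 at -0.10 in place of MSMO1, beside 18.1% of all genes. PMVK and HMGCS1 on the higher side and STARD4 on the lower side were thus called by limma both without DMSO replicate 1 and with the trend removed. With all 6 libraries as deposited, limma and edgeR called none of these 3, and DESeq2 called PMVK and STARD4 (adjusted p = 0.0321 and 0.0191).

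Promoters are printed for the 3 members with the smallest adjusted p-values, as a view of the sequence from which they are transcribed. Each runs from 250 bases before to 50 bases after the start that RefSeq gives on GRCh38.p14, 5′ to 3′ on the strand of the gene. Capitals mark CCAAT boxes (CCAAT, the NF-Y motif, read as ATTGG on the other strand) and GC boxes (GGGCGG, the SP1 motif), factors that act beside SREBP at sterol genes. The first is STARD4, chr5:111512486-111512785, minus strand, the second PMVK, chr1:154936670-154936969, minus strand, and the third NSDHL, chrX:152830813-152831112, plus strand.
STARD4: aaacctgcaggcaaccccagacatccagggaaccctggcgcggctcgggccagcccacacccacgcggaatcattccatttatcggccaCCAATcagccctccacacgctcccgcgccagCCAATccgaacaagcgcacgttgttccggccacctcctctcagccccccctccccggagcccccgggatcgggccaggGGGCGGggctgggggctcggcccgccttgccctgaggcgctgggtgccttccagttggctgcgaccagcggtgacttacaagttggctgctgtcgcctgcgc
PMVK: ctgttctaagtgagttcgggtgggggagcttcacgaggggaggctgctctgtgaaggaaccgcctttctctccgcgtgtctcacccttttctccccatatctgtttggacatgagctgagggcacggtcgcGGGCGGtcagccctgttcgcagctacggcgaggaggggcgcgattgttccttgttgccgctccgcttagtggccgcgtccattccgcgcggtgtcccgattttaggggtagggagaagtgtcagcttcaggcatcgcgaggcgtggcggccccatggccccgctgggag
NSDHL: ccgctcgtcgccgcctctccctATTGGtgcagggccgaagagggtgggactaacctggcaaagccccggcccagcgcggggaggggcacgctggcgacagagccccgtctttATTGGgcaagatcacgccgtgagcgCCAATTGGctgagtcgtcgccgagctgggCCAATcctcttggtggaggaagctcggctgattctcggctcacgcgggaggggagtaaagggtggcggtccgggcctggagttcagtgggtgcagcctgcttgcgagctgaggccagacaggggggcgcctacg

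The STARD4 window held 2 CCAAT boxes, beginning 161 and 130 bases before the start, and a GC box beginning 52 bases before it. PMVK held a GC box and no CCAAT box, and NSDHL held 5 CCAAT matches, of which 2 overlap each other as CCAATTGG, and no GC box. Promoters were found for 26 of the 29 members. A CCAAT box on either strand was in 17 of the 26 (65.4%, beside 35.7% of 27305 promoters in the same table) and a GC box in 24 (92.3%, beside 44.6%). The 27305 promoters include those of genes not tested here, so they are not a background of like expression. The core of the sterol regulatory element, searched as TCACNCCAC on both strands, matched only in SREBF2 (3.85%, beside 1.15%). Elements that differ from this pattern or lie outside the window were not counted, so the other members may still hold one. The ETS core CCGGAAG matched in 3 members, IDI1, FDPS and CYP51A1 (11.5%, beside 10.7%). A match is a run of letters and not a measured binding site.

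Other genes of the same biology were taken from 7 lists by function, 58 genes in all with 53 tested. None was called by limma at an adjusted p-value under 0.05, and edgeR called 0. DESeq2 called 2, beside 4.56% of all genes. An unadjusted limma p-value under 0.05 was found for 8 (all lower), which is 15.1% of the 53, beside 18.7% of all genes tested in both directions and 11% lower. Of the 53, 19 lay above 0 and 34 below, with a median of -0.04. Without DMSO replicate 1 limma called 1 of them higher (OSBP) and 5 lower (ERLIN1, TMEM97, SLC25A1, TECR and HACD3), beside 4.62% and 8.46% of all genes. In control of SREBP processing all 7 genes lay below 0 as deposited, the nearest at only -0.0017 and the median at -0.09, and without DMSO replicate 1 MBTPS1 and RNF139 lay above 0, at 0.02 each, and the median was -0.05. The signs of this list were not computed under other scalings. Of these, INSIG2, the other retention protein, had 265 ± 9.36 normalized counts in DMSO cells against 221 ± 11.2 in drug-treated cells (SD, n = 3 per group), or -0.26 (limma adjusted p = 0.17). In sterol trafficking TMEM97, an endoplasmic reticulum protein that limits NPC1, had the largest change. It had 5731, 5541 and 5434 normalized counts in DMSO replicates 1, 2 and 3, compared with 4691, 4956 and 4827 in drug-treated replicates 1, 2 and 3, without overlap, a change of -0.21 (limma adjusted p = 0.0563). Without DMSO replicate 1 TMEM97 passed the threshold, at -0.19 (limma adjusted p = 0.000795).

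In fatty acid elongation and activation, HACD3, a dehydratase of very long chain elongation, had the largest fitted change, with 4602 ± 427 and 3838 ± 134 normalized counts, a change of -0.26 (limma adjusted p = 0.0571). It passed the threshold without DMSO replicate 1, at -0.18 (limma adjusted p = 0.00134). ACAT2, the thiolase before HMGCS1, had a change of -0.19 (limma adjusted p = 0.18), opposite in sign to HMGCS1. Among liver X receptor genes, which answer to surplus sterol, 2 of the 4 tested lay above 0 and 2 below. NR1H3 and NR1H2 were at 0.26 and 0.15 (limma adjusted p = 0.425 and 0.515). Without DMSO replicate 1 they were at 0.20 and -0.006. MYLIP and LPCAT3 were at -0.05 and -0.03 (limma adjusted p = 0.743 and 0.902), and the exporters ABCA1 and ABCG1 had too few reads to be tested. In glycerolipid synthesis DGAT2 was at 0.46 (limma adjusted p = 0.427), with few normalized counts per library (12.6 to 27.0). It was at 0.31 without DMSO replicate 1 (limma adjusted p = 0.621). In fatty acid oxidation, 1 of 6 tested genes lay above 0 and 5 below, with a median of -0.09. The gene above 0 was ACADVL, which had the largest absolute change of that list, at 0.16 (limma adjusted p = 0.483). Without DMSO replicate 1 the change of ACADVL was -0.01.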

How the data were processed

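Per the labels and methods, the authors used BBDuk for trimming and STAR 2.7.9a for alignment to hg38 and gene counts, with DESeq2 1.44.0 for their own test. The deposited signal is a normalized count, in which the authors divided whole reads by 1 factor per library: 100% of values were whole multiples of the smallest, within a tolerance of 0.01. Of 35269 rows, the 1 without a gene name was dropped (6 reads or fewer in any library). Unused per-sample columns numbered 0.

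The test was limma 3.58.1 (R 4.3.3, moderated with a variance trend, two-sided) on log2 of the normalized count plus 1. It took in the 13930 genes whose mean reached 10, and Benjamini-Hochberg adjustment covered all of them. The pseudocount understates fold changes of genes with few reads. Whole reads were recovered for edgeR 4.0.16 and DESeq2 1.42.0, which served as alternatives. For 2 libraries the factor is so near 1 that code could not check this recovery independently.

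All 29 members are named. Of the other pathway genes, those with an adjusted p-value under 0.05 and the largest absolute change of each list were to be named. Members and lists were chosen with earlier results of these data known. Positions, lengths and GC content came from GENCODE 44 on hg38 (98.4% of genes tested), and promoters from RefSeq. The code was tested on simulated reads.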

Additional observations from a re-analysis of the deposited data

How the results depend on the processing

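Of 520 member values over 18 alternatives, 470 kept their direction and their side of the threshold, 21 gained a call and 29 changed sign, and 10 members did neither in any of them. The causes of the changes were not tested. With other filters, without the variance trend and with a replicate block the fitted change is the same by construction, so there only a call could move. CYP51A1 in DESeq2, without an adjusted p-value, was counted as kept. One alternative, the trend removal together with leaving out DMSO replicate 1, was chosen after seeing the data. The number of members called was 0 with other pseudocounts, filters and scalings, without the variance trend and in edgeR, 2 in DESeq2, 7 once trends on GC content and length were taken out and 7 with DMSO replicate 1 also left out. Across the fits without 1 library it went from 0 to 3, with 3 without DMSO replicate 1 and 2 without DMSO replicate 2. The sterol median was 0.066 and the fatty acid median 0.0077 with quantile normalization, beside -0.0015 over all genes tested. The sterol median was -0.0104 (9 genes higher, 13 lower) without trends on GC content and length, and -0.0089 (10 higher, 12 lower) with DMSO replicate 1 also left out. In these fits the median over all genes tested was -0.0284 and -0.0274. Across the fits without 1 library the sterol and fatty acid medians went from 0.0097 to 0.045 and from -0.065 to -0.026.

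Deviations of same-numbered samples had correlations of -0.0985, -0.0269 and -0.0267 across genes. The labels do not say whether same-numbered samples were handled together, so these values do not settle whether they were paired. With a replicate block, which also uses up degrees of freedom, 0 members and 180 of all genes were called, against 475 without it. Over the alternatives the adjusted p-value went from 0.0142 to 0.266 for PMVK, from 0.00351 to 0.25 for STARD4 and from 0.00272 to 0.6 for HMGCS1.

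Sign changes concerned members near 0. Without GC content and length trends LSS was -0.0080, DHCR7 -0.013, SREBF2 -0.063, SCAP -0.0013, FASN -0.079 and SC5D 0.074. With DMSO replicate 1 also left out LSS was -0.044, SREBF2 -0.0165, FASN -0.034, SQLE -0.0012 and SC5D 0.15. With quantile normalization SC5D was 0.029, SCD 0.015 and FADS1 0.0077, and SC5D was 0.014 with TMM, 0.0048 in edgeR and 0.0011 in DESeq2. Across the fits without 1 library FDPS went from -0.16 to 0.020, LSS from -0.033 to 0.11, HSD17B7 from -0.14 to 0.031, EBP from -0.18 to 0.051, SC5D from -0.11 to 0.15, SREBF2 from -0.0051 to 0.031, FASN from -0.026 to 0.064 and SCD from -0.043 to 0.0039.

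PMVK, TM7SF2 and CYP51A1 had as few as 43, 29 and 16 reads in a library and the widest intervals, and the part of depth in this was not tested.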
